A study of Mus musculus with 4 samples.

Results

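Neutrophil granule genes were followed in LSK cells from mice with and without 1 mutant Asxl1 allele. The 10 genes were chosen by symbol: 4 of the primary granules (Mpo, Elane, Prtn3, Ctsg) and 6 of later granules and mature neutrophils (Ltf, Ngp, Camp, Lcn2, S100a8, S100a9). Of these, 9 were measured, in 10 transcript rows out of 18691, and are 9 of 13749 gene symbols; Camp is not analysed here. LSK cells lack lineage markers, carry Sca-1 and Kit, and hold the stem cells and multipotent progenitors of the bone marrow. They were sorted from C57BL/6 mice aged 8 weeks, 8 per genotype. The genotypes were Asxl1+/+ (WT) and Asxl1G643fs/+ (KI), a heterozygous frameshift knock-in that, as far as the labels say, is present in the whole animal. There were 2 libraries per genotype, WT-1, KI-1, WT-2 and KI-2. Whether a library came from separate mice or from a pool was not stated, so the p-values reflect spread between libraries alone, and that spread may be technical.

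Neutrophils fill their granules in a fixed order as they mature. Promyelocytes make the primary (azurophil) granules with myeloperoxidase and serine proteases, and myelocytes and later stages make the secondary (specific) granules with iron-binding and antimicrobial proteins. Each protein enters the granule being built when its gene is active, so the 2 sets of mRNA mark an earlier and a later stage. LSK cells lie upstream of both, and transcripts such as Mpo are known to be present already in multipotent progenitors.

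Promoter sequences are shown here for Mpo, Elane and Prtn3 among the primary and Ngp and S100a9 among the later genes. Each is the 250 bases before the start of the gene (RefSeq, GRCm38.p6), read 5′ to 3′ on the gene's strand, in lower case with matches to 4 motifs in capitals. The motifs, searched on both strands, were those of PU.1 (GAGGAAGT), C/EBP (TTNCNNAA), MYB (AACGG) and RUNX (TGTGGT), and no matches overlapped in these 5.
Mpo, chr11:87793534-87793783, plus strand: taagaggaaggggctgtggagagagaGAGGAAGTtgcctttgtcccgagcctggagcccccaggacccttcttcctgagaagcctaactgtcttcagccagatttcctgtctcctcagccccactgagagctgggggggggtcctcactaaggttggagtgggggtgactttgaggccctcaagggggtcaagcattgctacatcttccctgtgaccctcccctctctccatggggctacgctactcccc
Elane, chr10:79886062-79886311, plus strand: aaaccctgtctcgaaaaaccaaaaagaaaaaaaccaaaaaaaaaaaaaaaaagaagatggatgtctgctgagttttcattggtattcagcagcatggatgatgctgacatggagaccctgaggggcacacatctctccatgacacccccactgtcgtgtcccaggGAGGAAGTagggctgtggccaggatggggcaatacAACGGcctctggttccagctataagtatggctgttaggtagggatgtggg
Prtn3, chr10:79879417-79879666, plus strand: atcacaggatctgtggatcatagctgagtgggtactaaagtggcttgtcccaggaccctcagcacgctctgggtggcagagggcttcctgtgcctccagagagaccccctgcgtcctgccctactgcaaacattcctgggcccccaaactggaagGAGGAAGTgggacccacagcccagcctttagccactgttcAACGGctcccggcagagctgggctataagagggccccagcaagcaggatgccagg
Ngp, chr9:110419558-110419807, plus strand: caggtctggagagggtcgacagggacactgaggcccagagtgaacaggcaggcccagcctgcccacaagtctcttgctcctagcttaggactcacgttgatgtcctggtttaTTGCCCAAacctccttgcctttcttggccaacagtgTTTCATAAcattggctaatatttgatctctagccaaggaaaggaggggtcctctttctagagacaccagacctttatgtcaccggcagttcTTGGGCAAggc
S100a9, chr3:90695722-90695971, minus strand: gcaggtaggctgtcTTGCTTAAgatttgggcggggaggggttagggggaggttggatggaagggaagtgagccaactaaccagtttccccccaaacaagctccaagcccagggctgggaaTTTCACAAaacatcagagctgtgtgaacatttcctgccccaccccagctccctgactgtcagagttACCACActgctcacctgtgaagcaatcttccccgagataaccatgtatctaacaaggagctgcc

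The PU.1 letters stood in 3 of 4 primary promoters (Mpo, Elane, Prtn3) and in 1 of 6 later ones (S100a8), against 2.44% of 32851 mouse promoter windows of this length. C/EBP letters stood in 0 of 4 primary and in 5 of 6 later promoters, all but Camp, against 36.8% of windows. Ctsg, S100a8 and Camp, which depart from their sets in the PU.1 or C/EBP letters, are not among the sequences shown. Elane and Prtn3, which lie 3137 bases apart on chromosome 10 and encode related proteases, both had the PU.1 letters (85 and 95 bases before the start) and the MYB letters (50 and 55 bases before it). MYB letters were in 14.5% and RUNX letters in 14.0% of windows, the latter also in Ctsg and S100a9. These are matches of letters and not measured binding sites, and the motifs were chosen with the sequences in view.

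The libraries stood apart by number before any genotype was considered. Expression is given as FPKM, the authors' fragments scaled to transcript length and to library size, summed per gene. Of 11083 genes with a mean of at least 1 FPKM, limma (adjusted p of 0.05) called 35.6% higher and 4.6% lower in the libraries numbered 2 than in those numbered 1. Differences are on the scale of log2(FPKM + 1), where the change of a low gene comes out too small, and over all tested genes the median difference of number 2 from number 1 was 0.27. The labels do not say what the numbers stand for. All 9 measured genes passed the filter, Ltf, Ngp and Lcn2 through the number 1 libraries alone. Kit stood between 81.9 and 105 FPKM, Ly6a between 20.7 and 41.9 and Cd34 between 316 and 452 in the 4 libraries, so the markers of the sort were present in each. In bulk RNA, fewer cells of a type and less RNA per cell cannot be told apart.

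**Figure D1:**
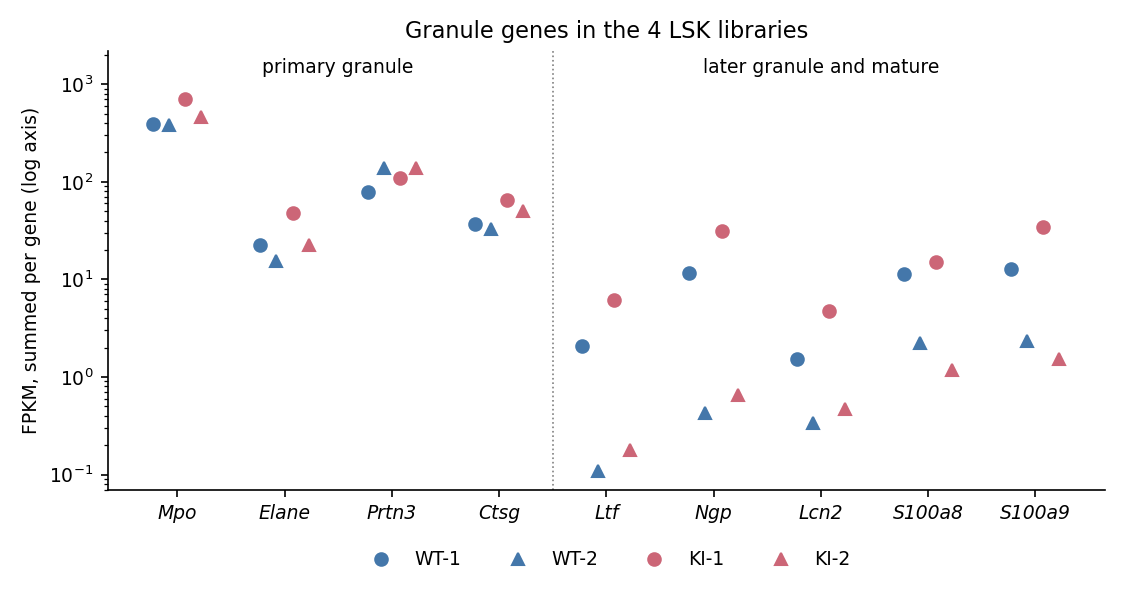
FPKM of the 9 measured genes (log axis) in WT (blue) and KI (red) libraries numbered 1 (circles) and 2 (triangles); each point is 1 library. Primary granule genes lie between 15.6 and 712 FPKM in all libraries, while each later gene is higher in both circles than in both triangles.

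Primary granule genes were expressed in every library, and 3 of the 4 were higher in KI than in WT within both library numbers, which held for 28.7% of all tested genes. No member passed the test between genotypes. Mpo, whose enzyme makes hypochlorous acid from hydrogen peroxide, was the most abundant, at 390.0 FPKM in WT-1, 712 in KI-1, 385 in WT-2 and 456 in KI-2. Both KI libraries lay above both WT libraries, with KI-1 well above the rest. WT averaged 387 ± 3.88 FPKM and KI 584 ± 182 (SD, n = 2).

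Ctsg encodes cathepsin G, a chymotrypsin-like protease of the primary granule. It stood at 37.1 FPKM in WT-1, 64.6 in KI-1, 32.8 in WT-2 and 50.4 in KI-2, and again the groups did not overlap. Its log2 difference was 0.69 with SE 0.23, and it was the single member with an unadjusted p under 0.05 (0.023, limma, adjusted p = 1). The difference was alike in the 2 numbers, at 0.78 in number 1 and 0.60 in number 2. Groups without overlap and KI above WT were found for 2 of the 9 genes (Mpo and Ctsg), against 6.39% of all tested genes. For both, an exact two-sided permutation test over libraries gave p = 0.333, the smallest that 2 against 2 libraries allow.

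Elane, the gene of neutrophil elastase, stood at 22.46 FPKM in WT-1, 47.6 in KI-1, 15.6 in WT-2 and 22.40 in KI-2. KI-2 thus lay just under WT-1, so the groups overlapped, although KI was higher within each number, by 1.05 in number 1 and 0.50 in number 2 on the log2 scale. The fitted differences were 0.77 with SE 0.39 for Elane and 0.56 with SE 0.34 for Mpo (adjusted p = 1, limma). For Mpo they were 0.87 in number 1 and 0.24 in number 2.

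Prtn3, the gene of proteinase 3, a close relative of elastase, did not follow its neighbour. It stood at 77.9 FPKM in WT-1, 109 in KI-1, 139 in WT-2 and 137 in KI-2. Both number 2 libraries were highest and nearly equal, and the genotypes overlapped. KI differed from WT by 0.48 in number 1 and by -0.020 in number 2, and the fitted difference was 0.23 with SE 0.34 (adjusted p = 1, limma). It stood at -0.18 without WT-1.

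**Figure D2:**
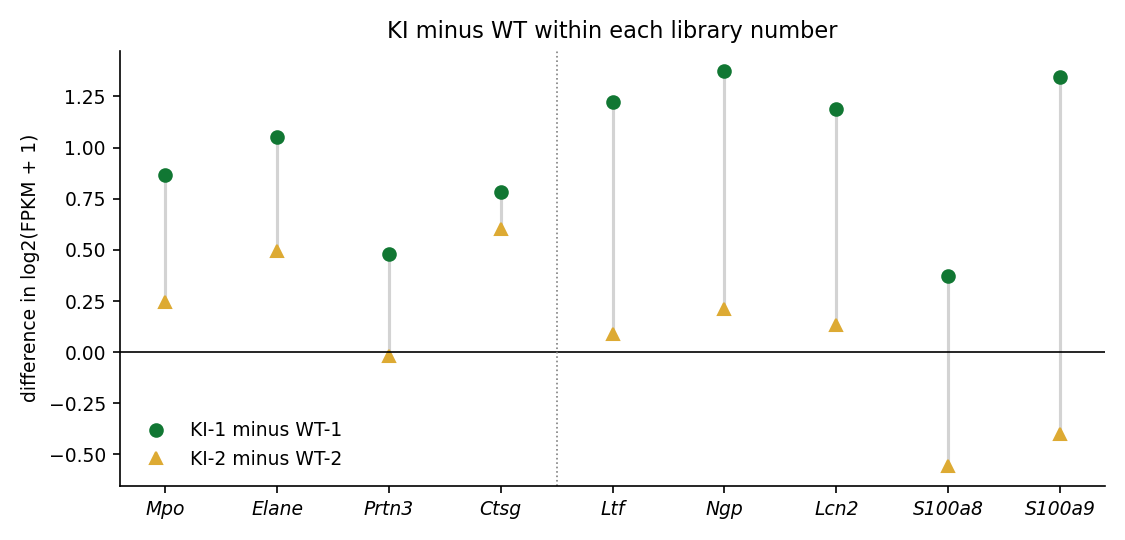
Difference between the KI and the WT library of the same number, in log2(FPKM + 1), for each measured gene; circles show number 1 and triangles number 2, each from 1 pair of libraries with no error. All 9 circles are above 0 and are higher than the triangle of the same gene, and 3 triangles (Prtn3, S100a8 and S100a9) are below 0.

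Later granule genes differed by library number: all 5 measured were higher in WT-1 and KI-1 than in WT-2 and KI-2. The same held for 12.7% of all tested genes, but Ltf, Ngp and Lcn2 entered the test through the number 1 libraries alone. Ngp, neutrophilic granule protein of the secondary granule, stood at 11.5 and 31.5 FPKM in the number 1 libraries of WT and KI, but at 0.425 and 0.650 in their number 2 libraries. Its FPKM was 27.1 times as high in number 1 as in number 2 in WT and 48.5 times in KI. On the log2 scale number 2 differed from number 1 by -3.72.

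S100a9 and S100a8 encode the 2 subunits of calprotectin, a calcium- and zinc-binding protein abundant in the cytosol of neutrophils and monocytes. S100a9 stood at 12.8 FPKM in WT-1, 34.1 in KI-1, 2.34 in WT-2 and 1.53 in KI-2. S100a8 stood at 11.4, 15.0, 2.21 and 1.18 FPKM in the same order. Both exceeded 1 FPKM in every library, so their entry into the test did not rest on the number 1 libraries. In number 1 they were higher in KI and in number 2 lower, by -0.40 for S100a9 and -0.56 for S100a8.

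The 2 transcript rows of S100a9 differed. NM_001281852 stood at 8.04 FPKM in WT-1, 29.9 in KI-1, 0.0210 in WT-2 and 0.0198 in KI-2, while NM_009114 stood at 4.76, 4.12, 2.32 and 1.51. The difference of the summed gene between the numbers was thus mostly in the former row. GENCODE M21 pairs both accessions with a single transcript, so how the estimate divided fragments between them is uncertain, and the sum is used throughout.

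Ltf, the gene of the iron-binding protein lactoferrin, and Lcn2, whose product binds bacterial siderophores, were low. Ltf stood at 2.08 FPKM in WT-1, 6.18 in KI-1, 0.110 in WT-2 and 0.180 in KI-2. Lcn2 stood at 1.53, 4.77, 0.340 and 0.468 FPKM in that order. KI-1 was highest for both genes, and the number 2 libraries lay under 0.5 FPKM, where the depth is unknown and values are least certain.

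Between the numbers, limma called S100a8 (adjusted p = 0.00342) and S100a9 (0.00501) lower in number 2, as it did 4.6% of all tested genes. Ngp (0.00382), Ltf (0.0101) and Lcn2 (0.0266) were called as well, but entered the test through the number 1 libraries alone, so these calls are no independent support; with no filter their adjusted p was 0.0134, 0.0257 and 0.0518. The differences ran from -1.44 for Lcn2 (SE 0.38) to that of Ngp, with -2.04 for Ltf (SE 0.39), -2.41 for S100a8 (SE 0.22) and -2.92 for S100a9 (SE 0.41). The calls of Ltf and Lcn2 were lost without WT-2 (adjusted p = 0.0516 and 0.104) and without KI-2 (0.0514 and 0.0874), and those of the other 3 remained without each library. Of the primary genes, Prtn3 was called, in the other direction, at 0.58 with SE 0.15 (limma, adjusted p = 0.0264). That direction was called for 35.6% of all tested genes, and the median difference over all tested genes was 0.27. With no filter the calls of Lcn2 and Prtn3 (0.0556) ended. That of Prtn3 also ended with a prior variance that does not follow the mean (0.0538), under median scaling (0.198) and under quantile scaling (0.179). It was lost as well without WT-2 or without KI-2, which leaves 1 library numbered 2. S100a8 and S100a9 were called under both scalings. Ngp, Ltf and Lcn2 were too, again after entry through the number 1 libraries alone. Mpo (-0.33), Ctsg (-0.26) and Elane (-0.78) were not called with the library number as the only term (limma, adjusted p = 0.333, 0.477 and 0.106). Elane was called lower in number 2 with genotype as a further term (limma, adjusted p = 0.0122). Without WT-1, which leaves KI-1 alone in number 1, the differences were -0.77 for Mpo, -0.66 for Ctsg and -1.30 for Elane. Without KI-1, which leaves WT-1 alone in number 1, they were 0.10, 0.13 and -0.25. Genotype enters both of these fits, so the direction for Mpo and Ctsg depended on the library left out.

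**Figure D3:**
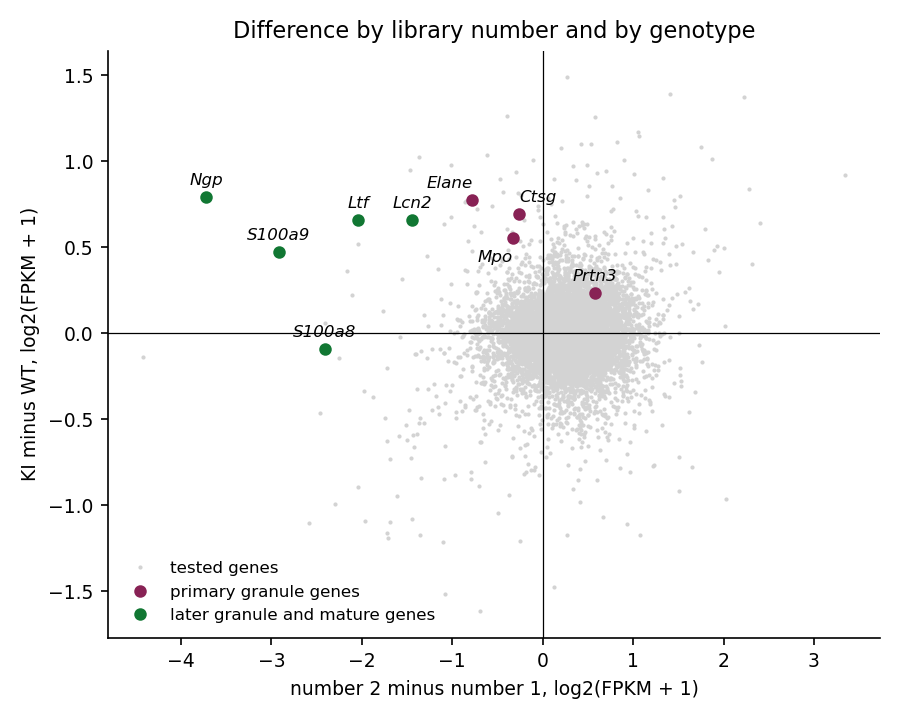
Each point is 1 tested gene, with its difference between number 2 and number 1 libraries (horizontal) and between KI and WT (vertical), both in log2(FPKM + 1); grey points are all 11083 tested genes. The 5 later genes (green) lie far to the left, at -1.44 to -3.72, while the 4 primary genes (purple) lie between -0.78 and 0.58.

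Between genotypes, limma called 0 of the 9 genes and 0 of all tested genes (0%), with 47 of all genes at an unadjusted p under 0.05. The median log2 difference of KI from WT was 0.62 over the 4 primary and 0.66 over the 5 later genes, beside 0.0075 over all tested genes. Primary genes had a median of 0.83 in number 1 against 0.37 in number 2, and later genes 1.22 against 0.089. The difference between the sets was not tested, and their members overlapped: in number 2 the FPKM of KI-2 over WT-2 ran from 0.986 to 1.54 for primary and from 0.536 to 1.64 for later genes. In number 1, KI-1 stood above WT-1 by a factor of 2.98 for Ltf, 2.74 for Ngp, 3.12 for Lcn2, 1.32 for S100a8 and 2.66 for S100a9 in FPKM. In number 2 the factors were 1.64, 1.53, 1.38, 0.536 and 0.655, from values of at most 2.34 FPKM.

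The fitted direction for later genes depended on which library was left out. Their median was -0.55 without WT-2 and -1.36 without KI-1, and 1.96 without KI-2. Ngp was called higher in KI without WT-1 (2.36, adjusted p = 0.000127, limma) and without KI-2 (2.94, adjusted p = 2.85e-07), and turned to -0.77 without WT-2 and -1.36 without KI-1. S100a9 was called without KI-2 alone (2.37, adjusted p = 0.000135), and stood at -0.55 without WT-2 and -1.42 without KI-1. S100a8, at -0.093 with SE 1.03 in all libraries, stood at 0.88 without WT-1 and 1.34 without KI-2. Leaving out 1 library unbalances the numbers between genotypes, so that the number difference enters these fits. For primary genes the median stayed between 0.32 and 0.87.

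Summed over their members, primary genes held 528 FPKM in WT-1, 934 in KI-1, 572 in WT-2 and 666 in KI-2, and later genes 39.3, 91.6, 5.42 and 4.01. The ratio of primary to later FPKM was 13.4 (WT) and 10.2 (KI) in number 1, and 105 (WT) and 166 (KI) in number 2. The ratio thus separated the numbers and not the genotypes.

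**Figure D4:**
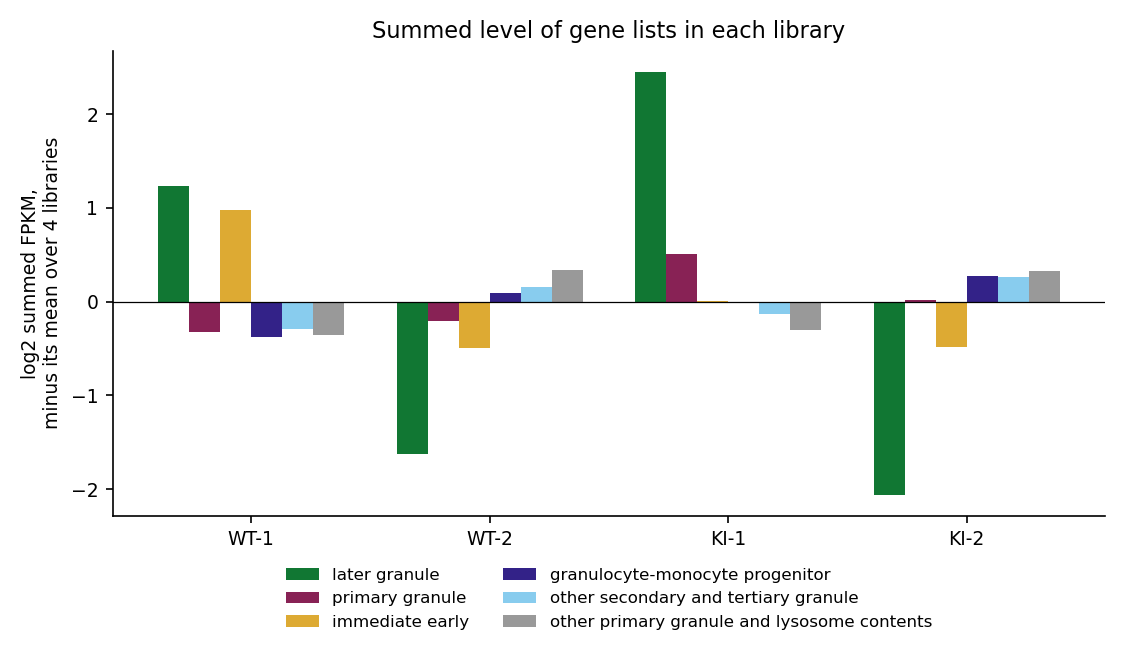
Log2 of the summed FPKM of 6 gene lists in each library, minus the mean of that log2 value over the 4 libraries, so that 0 is the list's own average. Later granule genes are high in WT-1 and KI-1 and highest in KI-1, immediate early genes are highest in WT-1, and primary granule genes are highest in KI-1.

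Other genes of the secondary and tertiary granules were mixed. Of 11 tested, 0 were called lower in number 2 and 3 were called higher, against 4.6% and 35.6% of all tested genes. A further 5 lay under the filter. Among them Mmp8, Mmp9 and Cd177 were higher in both number 1 libraries and are given below with the neutrophil markers. The others were not: Cybb stood at 0.436 FPKM in WT-1, 1.62 in KI-1, 0.898 in WT-2 and 0.934 in KI-2. Adam8 stood at 0.451, 0.541, 0.478 and 0.729 FPKM in that order. Over the 11 tested genes the median difference of number 2 from number 1 was 0.14, beside 0.27 over all tested genes. By smallest unadjusted p between genotypes, the named ones were the haptoglobin gene Hp (1.39 FPKM in WT-1, 5.58 in KI-1, 2.19 in WT-2 and 2.55 in KI-2), Itgam, which encodes the CD11b integrin (15.9, 20.7, 16.3 and 20.1), Anxa3 (3.28, 6.56, 4.18 and 6.57) and Cd33 (5.76, 8.89, 8.15 and 8.002). Of these, Hp was highest in KI-1 as the later members were, and Itgam and Anxa3 were higher in both KI libraries. KI was higher within both numbers for 6 of the 11, against 28.7% of all tested genes.

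Of 15 further primary granule and lysosome genes, 14 were called higher in number 2 and 0 lower, against 35.6% and 4.6% of all tested genes. Their median difference was 0.55, beside 0.27 over all tested genes. Chosen after its values were seen, Lyz2, the lysozyme gene, stood at 57.1 FPKM in WT-1, 60.5 in KI-1, 152 in WT-2 and 141 in KI-2. Both number 2 libraries were above both number 1 libraries, the opposite of Ngp. KI was higher within both numbers for 5 of the 15, near the 28.7% of all tested genes, and the median difference between genotypes was 0.0102. Named by smallest p, the protease gene Ctsz (60.6, 77.0, 74.4 and 79.9 FPKM in WT-1, KI-1, WT-2 and KI-2) and the hydrolase genes Gusb (33.6, 36.2, 43.2 and 47.0) and Man2b1 (24.4, 28.1, 32.6 and 35.2) were higher in KI in both numbers, and Lamp2 (47.3, 43.9, 61.4 and 57.1) was lower.

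Genes that activate, store or restrain the granule proteases differed little between genotypes, with a median of 0.0336 over 8. Ctsc, which removes the propeptide of elastase, proteinase 3 and cathepsin G, stood between 13.2 and 17.5 FPKM. Srgn, the proteoglycan core that holds them in the granule, stood at 680 in WT-1, 585 in KI-1, 645 in WT-2 and 635 in KI-2, lowest in KI-1, where Elane and Mpo were highest. The inhibitor gene Slpi was higher in KI in both numbers, at 4.11, 5.24, 3.56 and 6.99. Prss57, a further primary granule protease gene, stood between 4.53 and 5.57.

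The S100 list had 6 further tested genes, 1 of them S100pbp, which encodes an S100-binding protein, and 0 were called in the direction of S100a8 and S100a9. All 6 had higher values in number 2, with 4 of them called, against 35.6% of all tested genes. Their median difference was 0.67, beside 0.27 over all tested genes. S100a6 stood at 15.8 FPKM in WT-1, 13.4 in KI-1, 22.9 in WT-2 and 31.4 in KI-2, and S100a4 at 18.2, 11.5, 22.4 and 25.7. In both, KI-1 was the lowest library, where S100a9 was highest.

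Transcription factors and receptors of granulocyte formation were measured as well. Irf8, a factor of the monocyte path, stood at 28.9, 58.3, 33.8 and 46.4 FPKM in WT-1, KI-1, WT-2 and KI-2, with both KI libraries highest (0.72, unadjusted p = 0.0197, adjusted p = 1, limma). The receptor subunit genes Csf2rb (9.56, 13.2, 10.2 and 12.9) and Csf2ra (32.5, 26.6, 29.4 and 24.7) stood higher and lower in KI within both numbers. PU.1, encoded by Spi1, stood at 50.8 FPKM in WT-1, 59.4 in KI-1, 75.7 in WT-2 and 85.6 in KI-2, and Cebpb at 5.51, 10.997, 11.4 and 16.9, both higher in KI within each number and higher in number 2 within each genotype. Cebpa (at most 0.165 FPKM) and Cebpe (at most 0.603), which in mice are needed for granulocyte formation and for secondary granules, lay under the filter. Of the 12 factor and receptor genes tested, 0 were called lower in number 2, and KI was higher within both numbers for 4, against 28.7% of all tested genes.

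Markers of other cells were set beside the later genes, and their part in the result was not tested. Mature neutrophil markers were mixed. Mmp8 stood between 0.103 and 0.896 FPKM, Mmp9 between 0.0471 and 0.371 and Cd177 between 0.0556 and 0.648. All 3 were higher in both number 1 libraries than in both number 2 libraries. Cxcr1 was highest in WT-2, at 0.882 FPKM, against 0.244 in WT-1, 0.260 in KI-1 and 0.144 in KI-2. Cxcr2 stood at 4.18 in WT-1, 2.58 in KI-1, 1.49 in WT-2 and 1.89 in KI-2, and Csf3r between 52.9 and 58.1. Of 23 markers, 16 were measured and 8 tested, of which 1 (Cxcr2) was called lower in number 2, against 4.6% of all tested genes. Over the 8 tested, the median difference of number 2 from number 1 was 0.16, beside 0.27 over all tested genes. Mmp8, Mmp9, Cd177 and Cxcr1 lay under the filter and are not among the 8. The 16 measured markers summed to 227 FPKM in WT-1, 278 in KI-1, 274 in WT-2 and 267 in KI-2. Ly6g, Retnlg, Fpr1 and Fpr2 are not analysed here.

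Granulocyte-monocyte progenitor genes were higher in KI within both numbers for 11 of 14, against 28.7% of all tested genes, with a median of 0.43 and values of 572, 741, 793 and 898 FPKM for their sum in WT-1, KI-1, WT-2 and KI-2. Ms4a3 stood at 1.53, 4.78, 2.39 and 4.15 in that order, and Ly6c2, shared with the monocyte path, at 7.01, 44.3, 18.4 and 26.0. Eosinophil, basophil and mast cell genes had a sum of 91.4, 80.3, 82.8 and 83.4, with 9 of 14 measured. Of the 5 tested, 4 were higher in KI within both numbers, against 28.7% of all tested genes, with a median difference between genotypes of 0.43. Among them the eosinophil granule gene Prg2 stood at 3.39, 10.7, 1.95 and 3.28 and the basophil protease gene Mcpt8 at 1.39, 4.28, 1.18 and 1.23, both highest in KI-1. Erythroid genes summed to 219, 193, 309 and 252, lowest in KI-1, with a median difference between genotypes of -0.13 over 8; the alpha-globin gene Hba-a1 among them, at 7.505, 24.0, 6.96 and 10.4, was highest in KI-1. Monocyte and macrophage genes summed to 93.3, 151, 206 and 209.

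Immediate early genes, induced by handling among other stimuli, had 6 of 20 called lower and 1 called higher in number 2, against 4.6% and 35.6% of all tested genes. Their sum was 10730.0 FPKM in WT-1, 5495 in KI-1, 3869.8 in WT-2 and 3895 in KI-2. They peaked in WT-1, where later granule genes peaked in KI-1.

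The genes most like each set were sought among the tested genes outside the measured members. Likeness was the distance between log2 profiles centred over the 4 libraries. Nearest to the primary mean profile, which has a size of 0.64, were Kmo (distance 0.0598), the Fc receptor gene Fcgr3 (0.105), Ptpla (0.114) and Hes1 (0.162). Nearest to the later mean profile, of size 2.63, were the nuclear noncoding RNA Malat1 (0.645), the small nucleolar RNA Snora31 (0.853), the histone gene Hist1h4d (0.920) and the ribosomal protein gene Rpl19 (1.03). Malat1 stood at 175 FPKM in WT-1, 202 in KI-1, 35.6 in WT-2 and 33.5 in KI-2. None of the 4 genes nearest the later set is a neutrophil granule gene, but the members themselves were left out of the search. With 4 libraries a close profile is a description only.

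The authors' normalized log2 values did not hold the difference between the numbers, in the members or in the table as a whole. Over all 18691 transcript rows the median difference of number 2 from number 1 was 0.00022 (SD 0.0045) in those values. WT-2 minus WT-1 and KI-2 minus KI-1 had a Pearson correlation of -0.999 over all rows. In the 10 member rows the difference of number 2 from number 1 lay between -0.037 and 0.0036 in those values, where log2(FPKM + 1) gave -4.03 for NM_001281852 of S100a9 and -3.72 for Ngp. The authors' deposited table gave a fold of KI over WT of 1.33 for Mpo, 1.48 for Elane, 1.11 for Prtn3, 1.44 for Ctsg and 1.47 for Ngp. For S100a9 it gave 1.505 for NM_001281852 and -1.16 for NM_009114, a negative value standing for lower in KI. The smallest adjusted p among the members in the authors' deposited table was 0.114, for Ctsg. In those values Ngp stood at 2.07, 2.98, 2.39 and 2.59 in WT-1, KI-1, WT-2 and KI-2, where FPKM differed 27.1-fold in WT and 48.5-fold in KI.

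**Figure D5:**
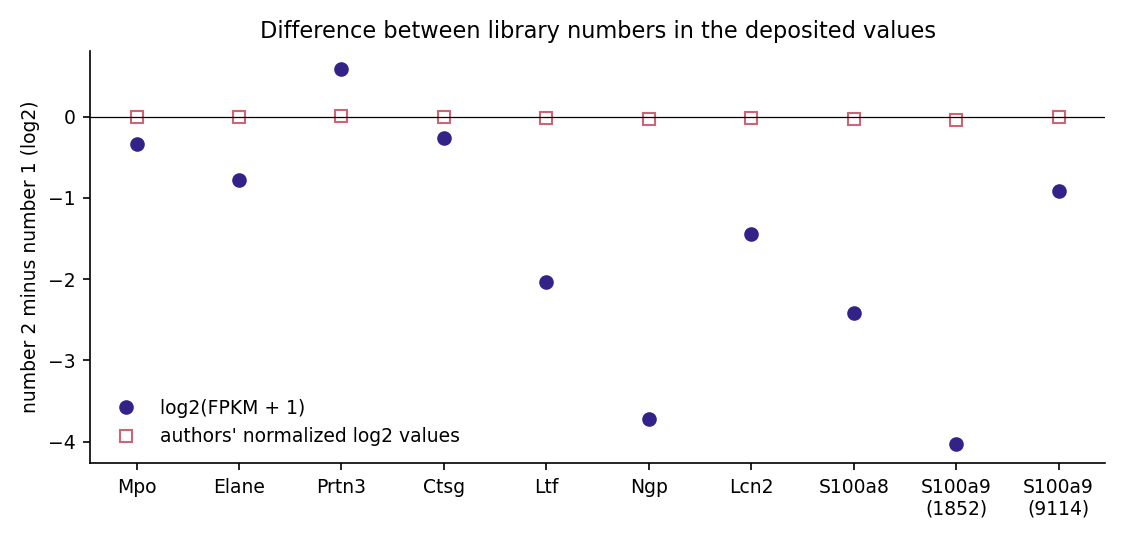
Difference of number 2 from number 1 libraries for each of the 10 transcript rows, in log2(FPKM + 1) (filled circles) and in the authors' normalized log2 values (open squares); S100a9 has 2 rows, marked by the last digits of their accession. The squares all lie at 0 within 0.04, while the circles of later genes reach -4.03.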

How the data were processed

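RNA was sequenced from 4 libraries of LSK cells, 2 per genotype. The authors deposited FPKM values per RefSeq transcript. The submitters' processing notes name TopHat, Cufflinks and the build mm10 (GRCm38), without versions. Beside FPKM the authors deposited normalized log2 values per library with group means and SDs, and a comparison of KI with WT with a signed fold, a t statistic (score), p-values and adjusted p-values, all by the authors. How the log2 values were normalized is not given in the sources used here. No FPKM was 0 and the lowest was 1e-06. Fragment counts were not used here, so the depth behind each value is unknown; the listed values of a library add up to between 324255 (KI-1) and 411542 (KI-2) FPKM.

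FPKM was summed per symbol, genes with a mean of at least 1 were kept (11083, leaving out 2666), and log2(FPKM + 1) was fitted with limma 3.58.1 in R 4.3.3, with genotype or library number as the only term, a prior variance following the mean, two-sided tests and Benjamini-Hochberg adjustment over all genes. The fit was run on simulated data, where it was required only that fitted differences followed the simulated ones. How often it recovers a true difference is not given here. The members and lists were chosen with earlier results of these data known. The rule for named genes was up to 4 tested genes per list with the smallest unadjusted p between genotypes, and the 4 genes nearest in profile to each set; some genes that it names are left out. Spi1, Cebpa, Cebpe, Ctsc, Lyz2, Kit, Ly6a and Cd34 fall outside it and were chosen after their values were seen. So were Mmp8, Mmp9, Cd177, Cxcr1, Cxcr2, Csf3r, Cybb and Adam8. Alternatives changed the pseudocount, filter, scaling, prior variance, transcript choice and terms, or left out 1 library. Promoter sequences and positions are from RefSeq, GRCm38.p6; 1 list gene was matched by gene ID.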

Additional observations from a re-analysis of the deposited data

Results flagged for a closer look

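For 3 genes, KI differed from WT in opposite directions in the 2 library numbers; each direction rests on 1 pair of libraries and the difference between the numbers was not tested, since no residual spread is left. On the scale of log2(FPKM + 1), S100a9 differed by 1.34 in number 1 and -0.40 in number 2. S100a8 differed by 0.37 and -0.56. Prtn3 differed by 0.48 and -0.020.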

How the results depend on the processing

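Between genotypes limma called 0 genes, 1 with the library number as a term (replicate block) and 7 to 37 without 1 library; of the members it called 0, 0 with the block, and 0 to 2 without 1 library. Same-numbered libraries deviated together (correlation over genes 0.691), but the labels say no more than the number. Between numbers it called 4452 genes, 2187 under quantile and 2176 under median scaling, and 1162 to 4808 without 1 library; of the members it called 6, 7 with genotype as a term (replicate block, which added Elane at adjusted p = 0.0122), and 3 to 9 without 1 library. Of the 6 members called between numbers, 5 were lower and 1 higher in number 2, against 4.6% and 35.6% of all tested genes. Among the 5, Ngp, Ltf and Lcn2 entered the test through the number 1 libraries alone, so their calls are no independent support. With no filter 4 members were called. Each fit without 1 library leaves 1 library in a number and in a genotype, so its counts are a description only. The later median between genotypes, 0.66, ran from -1.36 to 1.96 without 1 library. Primary minus later median, -0.031, was 0.15 with a minimum mean of 5 FPKM, which removes Ltf and Lcn2, and ran from -1.08 to 1.68 without 1 library. Single genes ranged, without 1 library, from -0.18 to 0.65 (Prtn3), -0.65 to 1.96 (Ltf), -1.36 to 2.94 (Ngp), -0.33 to 1.65 (Lcn2), -1.53 to 1.34 (S100a8) and -1.42 to 2.37 (S100a9). In the authors' values NM_009114 of S100a9 stood at -0.22. With the most abundant transcript alone, the primary to later ratio was 184 in WT-2 and 266 in KI-2. With depth unknown, values under 1 FPKM are the least certain.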
